A study of Mus musculus with 24 samples.

Results

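The change of gene expression with age in the wild-type (WT) mouse hippocampus was read from 6 of the 24 arrays of the series. They are the 3 arrays titled as old WT hippocampus, from mice 655 days old, and the 3 titled as young WT hippocampus, from mice 100 days old. All mice were male C57BL/6J. The RNA of 2 to 3 mice was pooled in equal parts for each array, so p-values measure the spread between pools and not between single mice. For comparison, the age change in ApoD-KO hippocampus and in WT cortex was taken from 3 old and 3 young arrays each, at the same ages, sex and background strain. The 3 old and 3 young ApoD-KO cortex arrays were used for differences between regions and for the age change of some named IDs. ApoD-KO mice lack apolipoprotein D, a secreted lipid-binding protein. The labels give no further allele and no treatment.

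The hippocampus forms memories of places and events. It holds the granule neurons of the dentate gyrus and the pyramidal neurons of the CA fields, with inhibitory neurons, astrocytes, oligodendrocytes, microglia and vessels between them. In ageing rodents, transcripts of immune and glial genes are known to rise in this tissue, and the birth of new granule neurons is known to decline. In pooled tissue, a change in the number of cells of a type and a change in RNA per cell cannot be told apart.

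Values were log2 signals for 23879 Ensembl gene IDs, and the 14327 IDs with a mean over 24 arrays above 6.63 were tested. The files do not pair these IDs with gene names, and the reference tables used here matched 0 of them. Results are therefore given by ID, no gene or cell type is named, the tissue label was not checked against marker genes, and no sequence is shown. The medians over all IDs were 7.36, 7.39 and 7.42 on the old arrays and 7.39, 7.42 and 7.39 on the young arrays, which overlap. Over the tested IDs they were 8.94, 8.92 and 8.91 on the old arrays and 8.90, 8.87 and 8.87 on the young arrays, with every old array above every young one.

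Old and young WT hippocampus were told apart across the whole profile. The root mean square difference between 2 arrays was 0.164 to 0.211 log2 between ages, 0.138 to 0.150 among the 3 old arrays and 0.124 to 0.131 among the 3 young arrays. The first principal component of the 6 arrays held 48.7% of their variance. Its scores were 11.58, 8.14 and 5.93 on the old arrays and -5.66, -11.44 and -8.56 on the young arrays, so the ages did not overlap on it. The median standard deviation of an ID was 0.0667 log2 among old arrays and 0.0604 among young arrays. It was larger among old arrays in 54.9% of IDs, a difference given as a description with no test.

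Of the 14327 tested IDs, 714 (4.98%) were called at a limma adjusted p under 0.05. Of these, 541 (3.78%) rose in old mice and 173 (1.21%) fell. Most changes were small. The median change of the rising IDs was 0.318 log2, or 1.25-fold, and that of the falling IDs was -0.259 log2, or 1.20-fold lower. Across all tested IDs the median change was 0.011 log2. A change over 0.5 log2 was seen in 73 of the rising IDs and 4 of the falling ones, and a change over 1 log2 in 4 and 0. The 3 old and the 3 young arrays did not overlap in 540 of the 541 rising and 172 of the 173 falling IDs. Full separation alone was common, since it occurred in 33.2% of all tested IDs, with old higher in 19.9% and old lower in 13.3%.

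The balance of directions depended on how arrays were scaled. Rising IDs made up 75.8% of the calls on the deposited values, 81.6% (640 rose, 144 fell) after centring each array on the median of all IDs, and 57.7% (547 rose, 401 fell) after quantile normalization. Centring on the median of the tested IDs, which lay higher on each old array, turned the balance to 42.0%, with 383 rising and 528 falling. The number of calls also moved with single arrays. It was 216, 325 and 394 without old replicates 1, 2 and 3, and 510, 177 and 235 without young replicates 1, 2 and 3. In all 6 of these fits 122 rising and 20 falling IDs were called, which is 22.6% and 11.6% of the full lists. All of these 142 IDs were also called in the same direction under quantile normalization and both centrings.

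**Figure D1:**
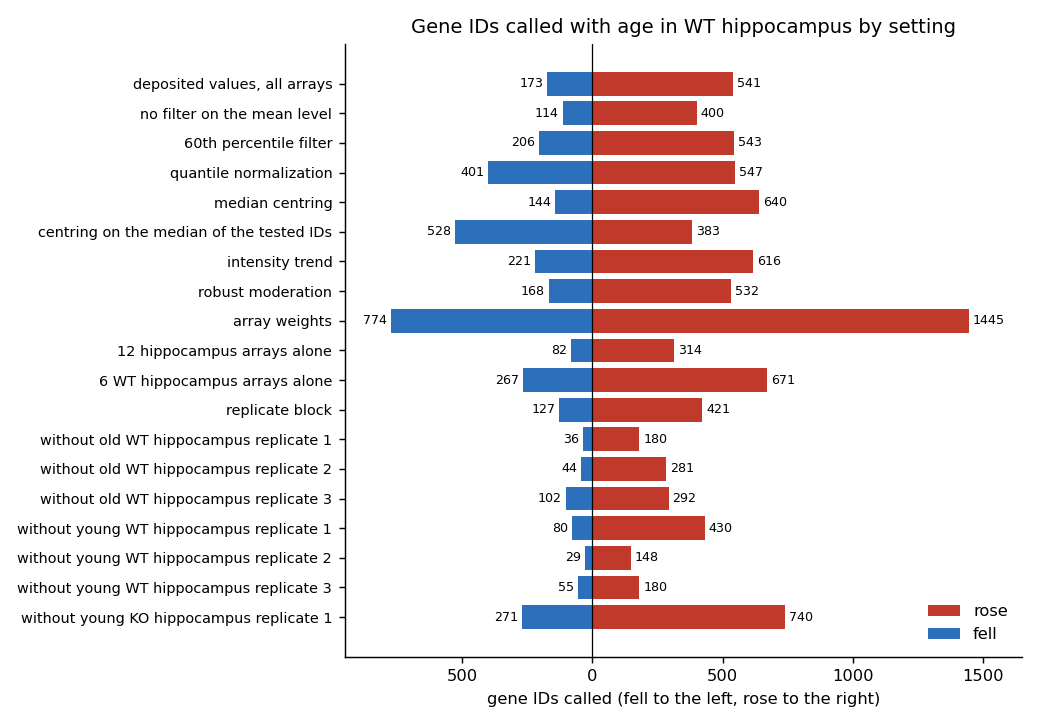
Number of gene IDs called as rising (right, red) and falling (left, blue) in old against young WT hippocampus under each setting; the number stands beside each bar. The deposited values gave 541 rising and 173 falling, array weights gave the most calls and leaving out young replicate 2 the fewest.

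Calls came from the whole range of signal. In 5 bins of equal size by mean level, the share that rose was 1.78% in the dimmest bin (6.63 to 7.54 log2) and 4.64% in the brightest (10.34 to 14.3 log2). The share that fell was 0.628% and 2.02% in the same bins. The median standard error was 0.0854 log2 in the dimmest and 0.0585 log2 in the brightest bin, so a change of a given size was easier to call in bright IDs. The median change also differed by level. It was -0.038 log2 in the dimmest bin, 0.039 in the middle bin and 0.011 in the brightest.

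**Figure D2:**
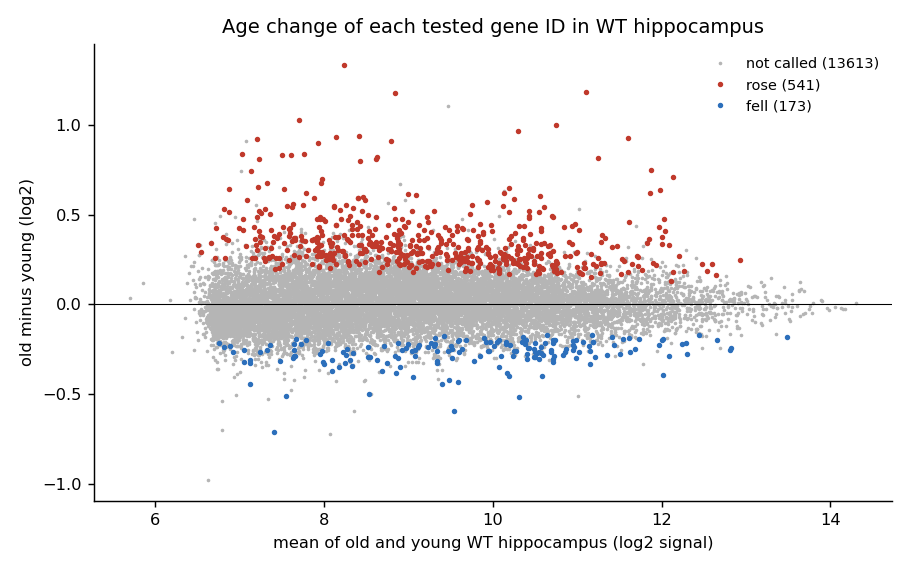
Old minus young difference (log2) of each tested gene ID against its mean level in WT hippocampus (log2 signal), with 541 rising IDs in red, 173 falling IDs in blue and the others in grey. Rising IDs reach 1.34 log2, while no falling ID goes below -0.71.

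ENSMUSG00000073418 had the largest change of the 714 called IDs. Its level was 8.92, 8.88 and 8.90 log2 on the old arrays and 7.59, 7.56 and 7.55 on the young arrays. All old arrays lay at least 1.30 log2 above all young ones. It averaged 8.90 ± 0.02 in old and 7.57 ± 0.02 in young WT hippocampus (SD, n = 3 each), a rise of 1.34 log2 (SE 0.10, 2.52-fold, limma adjusted p = 1.5e-07). It rose as well in KO hippocampus, by 1.30 log2 (adjusted p = 2.3e-07), and in WT cortex, by 0.99 log2 (adjusted p = 1.2e-05). The levels there were 8.91 ± 0.12 in old and 7.61 ± 0.24 in young KO hippocampus, and 7.53 ± 0.17 in old and 6.54 ± 0.05 in young WT cortex. The difference between its age changes in hippocampus and cortex, 0.35 log2 (95% interval 0.05 to 0.65), did not pass the threshold (adjusted p = 0.20).

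ENSMUSG00000064365 rose next in size. It stood at 12.00, 11.57 and 11.53 log2 on the old arrays and at 10.65, 10.39 and 10.51 on the young arrays. The ages were 0.88 log2 apart at their closest, and old replicate 1 was the highest. The rise was 1.19 log2 (SE 0.26, 2.27-fold, limma adjusted p = 0.012). Its SE was the largest of the 4 IDs described here, and the call was lost without old replicate 1, without young replicate 2 and with the 12 hippocampus arrays alone, with an adjusted p of up to 0.079. In KO hippocampus it rose by 1.45 log2 (adjusted p = 2.9e-03), with young KO arrays spread from 9.79 to 11.41. In WT cortex the change was -0.22 log2 (adjusted p = 0.83), with levels of 11.98 ± 0.13 in old and 12.20 ± 0.21 in young mice. Its level in old WT hippocampus, 11.70 ± 0.26, was thus near the cortex levels, while that in young WT hippocampus was 10.52 ± 0.13.

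Among falling IDs, ENSMUSG00000021760 moved most. It had 7.02, 7.07 and 7.07 log2 on the old arrays and 7.84, 7.68 and 7.78 on the young arrays. The ages were 0.61 log2 apart at their closest, with old lower. The fall was -0.71 log2 (SE 0.096, 1.63-fold, limma adjusted p = 3.2e-04), the 25th largest change of the 714. It fell by 0.53 log2 in KO hippocampus (adjusted p = 3.1e-03), and its change in WT cortex was -0.38 log2 (adjusted p = 0.066).

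ENSMUSG00000050822 had 9.21, 9.27 and 9.27 log2 on the old arrays and 9.86, 9.78 and 9.89 on the young arrays. It fell by 0.59 log2 (SE 0.074, 1.51-fold, limma adjusted p = 1.2e-04), and the ages did not overlap. In KO hippocampus it fell by 0.42 log2 (adjusted p = 2.5e-03). In WT cortex, where its level was 7.31 ± 0.08 in old and 7.48 ± 0.05 in young mice, the change was -0.17 log2 (adjusted p = 0.38). The age change differed between hippocampus and cortex by -0.42 log2 (SE 0.10, adjusted p = 0.041). How this difference depends on the settings was not examined for this ID.

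**Figure D3:**
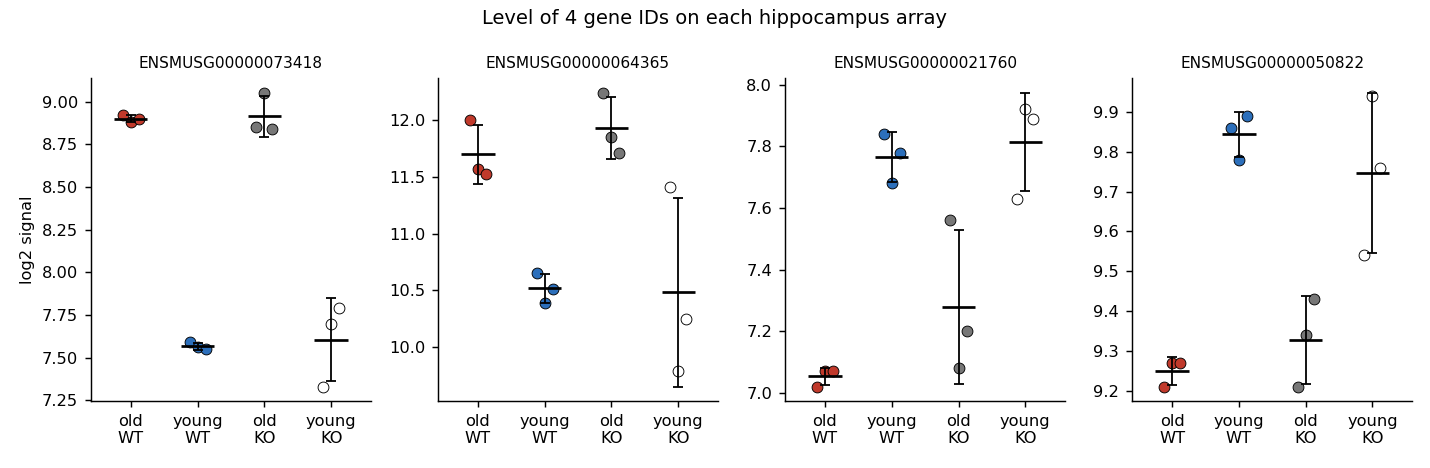
Log2 signal of the 2 rising and the 2 falling gene IDs with the largest changes on each hippocampus array; points are arrays, horizontal bars are group means and error bars are 1 SD (n = 3). Old and young WT arrays do not overlap for any of the 4 IDs, and the KO arrays are more spread than the WT arrays.

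The age change of the called IDs was then read in KO hippocampus and WT cortex. The arrays of these groups do not enter the WT hippocampus difference, but they do enter the filter and the spread behind each call. In KO hippocampus, 533 of the 541 rising IDs (98.5%) changed upward, where 58.7% of all tested IDs did, and their median change was 0.248 log2. Of the 541, 263 (48.6%) were themselves called as rising in KO, where the share among all tested IDs was 4.13%, and 0 were called as falling. Of the 173 falling IDs, 160 (92.5%) changed downward in KO hippocampus, where 41.3% of all tested IDs did, and 54 (31.2%, against 1.25% of all tested IDs) were called as falling. Their median change there was -0.172 log2. The medians in WT, 0.318 and -0.259 log2, are inflated, because the IDs were chosen by them. Each ID has 1 estimate of spread shared by the genotypes, which favours joint calls.

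The same IDs were then read in WT cortex. Of the 541 rising IDs, 244 (45.1%) changed upward in cortex, where 49.4% of all tested IDs did, and their median change was -0.020 log2. Of them, 40 (7.39%, against 0.824% of all tested IDs) were called as rising in cortex and 2 as falling. Of the 173 falling IDs, 78 (45.1%) changed downward in cortex, where 50.6% of all tested IDs did, with a median change of 0.009 log2, and 3 (1.73%, against 0.209%) were called as falling and 1 as rising. The 122 rising IDs called without each array in turn had a median change of 0.434 log2 in WT hippocampus, 0.360 in KO hippocampus and 0.034 in WT cortex, and 122 and 67 of them changed upward in KO hippocampus and WT cortex. The 20 falling IDs of that kind had medians of -0.389 log2 in WT hippocampus, -0.247 in KO hippocampus and -0.024 in WT cortex, and 19 and 11 of them changed downward in KO hippocampus and WT cortex.

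**Figure D4:**
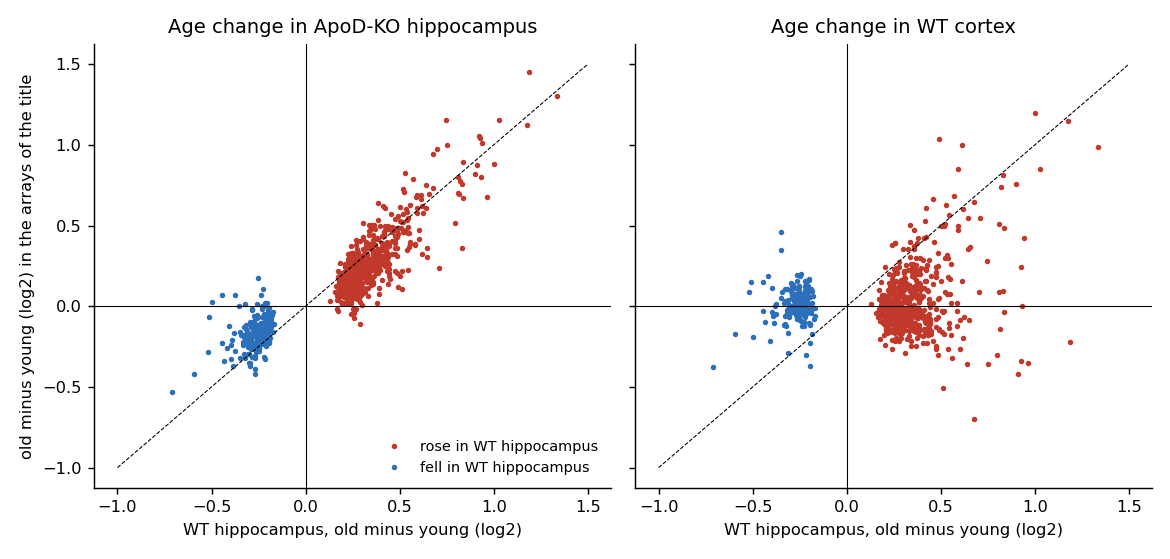
Age change (old minus young, log2) of the 541 rising (red) and 173 falling (blue) gene IDs in KO hippocampus (left) and in WT cortex (right), against their change in WT hippocampus; the dashed line marks equal changes. In KO hippocampus 533 of the rising IDs lie above 0, and in WT cortex 244 do.

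Whether the age change itself differed was tested as an interaction. Between WT hippocampus and WT cortex, 292 IDs (2.04%) were called, of which 213 (1.49%) had the higher change in hippocampus and 79 (0.551%) the lower. Among the 213, hippocampus rose with age in 164, where 3.78% of all tested IDs did. Cortex fell in 7, where 0.209% of all tested IDs did, and for 44 neither age change was called alone. The median age change of the 213 was 0.301 log2 in hippocampus and -0.144 log2 in cortex. Among the 79, hippocampus fell in 34 and cortex rose in 20, where 1.21% and 0.824% of all tested IDs did. Their medians were -0.207 log2 in hippocampus and 0.190 log2 in cortex. These counts and medians describe IDs chosen by a contrast that contains both age changes, so high shares of calls are partly built in. The balance depended on the scaling here too, with 182 higher and 240 lower after centring on the median of the tested IDs. The count of 292 was sensitive to single arrays. It was 6 without replicate 3 of old WT cortex and 597 without replicate 3 of young WT cortex, and lay from 28 to 172 without each of the 6 hippocampus arrays in turn.

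ENSMUSG00000064365 (above) and ENSMUSG00000061897 had the largest positive differences. ENSMUSG00000061897 stood at 7.60, 7.88 and 7.52 log2 in old and 7.0, 6.91 and 7.07 in young WT hippocampus, and at 7.38, 7.71 and 7.32 in old and 8.52, 7.96 and 8.03 in young WT cortex. Old lay above young in hippocampus and below young in cortex, with no overlap in either region. It rose in hippocampus by 0.68 log2 (limma adjusted p = 0.048), its change in cortex was -0.70 log2 (adjusted p = 0.10), and the difference was 1.37 log2 (SE 0.27, adjusted p = 0.016). In KO cortex it went the other way, with 8.31, 8.18 and 8.37 log2 in old and 8.04, 7.56 and 7.76 in young mice. Old lay above young there without overlap, by 0.50 log2, which did not pass the threshold (adjusted p = 0.20). In KO hippocampus it rose by 0.73 log2 (adjusted p = 0.032). The 2 IDs with the largest negative differences stood higher in hippocampus than in cortex at both ages. ENSMUSG00000010175 averaged 9.90 ± 0.09 log2 in old and 10.25 ± 0.10 in young WT hippocampus, with no overlap, and 7.73 ± 0.04 in old and 7.26 ± 0.18 in young WT cortex. It fell by 0.35 log2 in hippocampus (adjusted p = 0.032) and rose by 0.46 log2 in cortex (adjusted p = 0.011), a difference of -0.81 log2 (SE 0.13, adjusted p = 9.6e-03). ENSMUSG00000009075 averaged 11.24 ± 0.07 in old and 11.44 ± 0.05 in young WT hippocampus, and 8.61 ± 0.02 in old and 8.04 ± 0.22 in young WT cortex. Its change was -0.20 log2 in hippocampus (adjusted p = 0.20), and it rose by 0.57 log2 in cortex (adjusted p = 1.6e-03), a difference of -0.78 log2 (adjusted p = 9.7e-03). In KO cortex ENSMUSG00000009075 rose by 0.61 log2 (adjusted p = 9.0e-04), and the change of ENSMUSG00000010175 was 0.17 log2 (adjusted p = 0.40). Neither was called in KO hippocampus, where the change was -0.16 log2 for ENSMUSG00000010175 (adjusted p = 0.33) and -0.17 log2 for ENSMUSG00000009075 (adjusted p = 0.29).

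Between WT and KO hippocampus, 0 IDs were called by limma for a different age change, with a smallest adjusted p of 0.999. At an unadjusted p under 0.05 there were 581 IDs (4.06%). The 95% interval of such a difference reached 0.225 log2 to either side for an ID with the median SE. The count of 0 does not show that the genotypes aged alike.

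The direction of the age change went with the regional pattern of an ID in young KO mice, and more weakly in old KO mice. The regional pattern was first taken as the mean of young KO hippocampus minus that of young KO cortex. No array of the WT comparison entered it, but this does not make it independent of the age change. In KO hippocampus, 98.5% of the rising and 92.5% of the falling IDs changed the same way with age. Young KO levels share in that change, so a negative relation can be partly built in. IDs with a value of -1 log2 or less, which stood higher in KO cortex, numbered 177. Of these, 23 (13%) rose with age in WT hippocampus and 0 fell, and their median age change was 0.079 log2. IDs with a value over 1 log2, which stood higher in KO hippocampus, numbered 205. Among the 205, 7 (3.41%) rose and 12 (5.85%) fell, with a median age change of -0.044 log2. Over all tested IDs, 3.78% rose and 1.21% fell. The share that rose at over 1 log2 was thus near that of all tested IDs. Of the 541 rising IDs, 103 (19.0%) were higher in young KO hippocampus than in young KO cortex, where 44.5% of all tested IDs and 125 (72.3%) of the 173 falling ones were. Across the 14327 IDs, which are not independent, the Pearson correlation of age change and regional difference was -0.264 (Spearman -0.312).

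The relation was weaker when the regional difference came from old KO mice, with a Pearson correlation of -0.091 (Spearman -0.0707). Old KO levels share in the age change too, with the opposite sign, so this correlation can be shifted toward positive values. The young and old KO correlations can thus be shifted in opposite directions, and neither is free of the age change. In bins from old KO mice, 16 of 137 IDs (11.7%) at -1 log2 or less rose and 0 fell. Of the 169 IDs over 1 log2, 9 (5.33%) rose and 8 (4.73%) fell, both above the shares of all tested IDs (3.78% and 1.21%). The mean level of the 541 rising IDs was 9.44, 9.39 and 9.42 log2 in old and 9.10, 9.03 and 9.04 in young WT hippocampus, and lay between 9.35 and 9.50 on the 6 WT cortex arrays. In old WT hippocampus this mean lay within the range of the WT cortex arrays, which does not show that single IDs did. The rising and falling IDs were chosen by these same WT hippocampus arrays, which inflates the difference between the ages in their means. The mean of the 173 falling IDs was 9.60, 9.60 and 9.62 log2 in old and 9.89, 9.88 and 9.86 in young WT hippocampus, and 9.50 to 9.61 on the WT cortex arrays. Whether cortex tissue in the hippocampus pools had a part in these values was not tested.

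**Figure D5:**
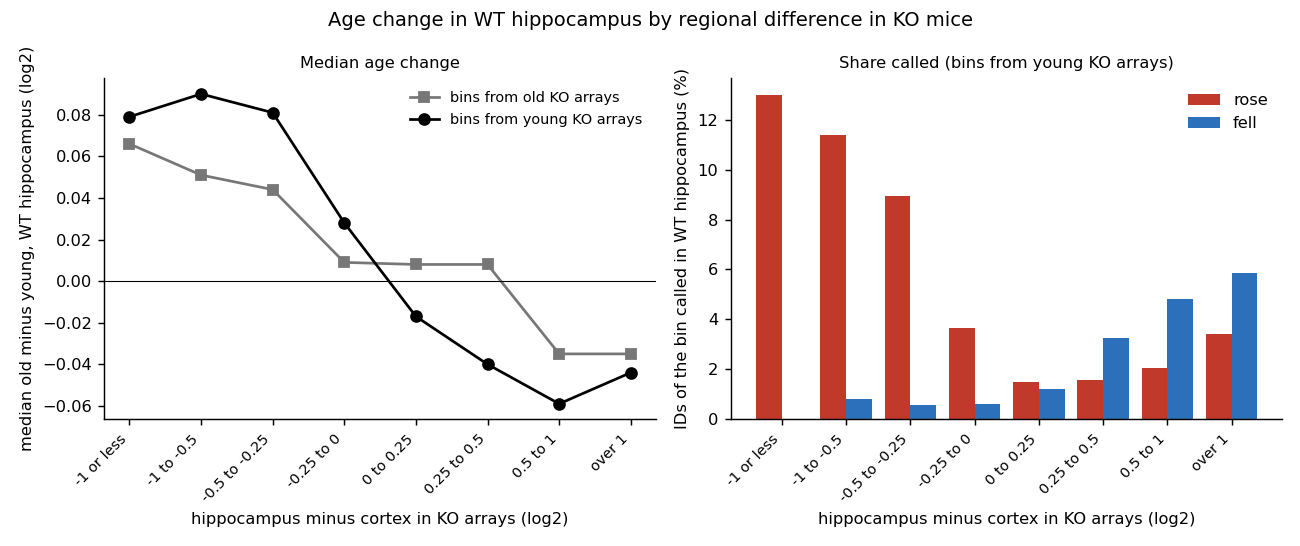
Age change in WT hippocampus of IDs grouped by their hippocampus minus cortex difference in KO mice (log2): the median change (left, log2, bins from old or young KO arrays) and the share of IDs called as rising or falling (right, %, bins from young KO arrays). IDs higher in KO cortex, at the left of each panel, have the higher median change, and 13% of the first bin rose.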

How the data were processed

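RNA was measured on Affymetrix arrays. The authors deposited log2 signals per Ensembl gene ID; MAS5 and RMA are named, per the submitters' processing notes, with no role or version. That unit was read from the values (3.99 to 14.4) and the like medians. The sources used here give no array model, annotation build or probe rule. Background level is unknown, so folds of dim IDs are uncertain, and the number of arrays limits the precision.

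With R 4.3.3 and limma 3.58.1, the 14327 IDs above the 40th percentile of mean level (6.63 log2) were fitted with 8 group means on 24 arrays (16 residual degrees of freedom) and eBayes. In each age comparison and each interaction, two-sided p-values were adjusted over all tested IDs (Benjamini-Hochberg). "Rose" and "fell" mean an adjusted p under 0.05. The procedure was run on simulated data with equal spread on all arrays. The real arrays differed in spread, so this does not show how the procedure performs on them. Alternatives changed the filter, the scaling, the moderation, the array weights, the arrays fitted and the replicate block, or left out 1 array. No 2 arrays were identical (0 pairs).

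The comparison, the rule for named IDs (2 per direction, the largest called changes, with ages not overlapping in single contrasts) and the lists were chosen with earlier results of these data known. The 42 planned gene lists (0 used), promoter motifs and marker checks need gene names and were not run.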

Additional observations from a re-analysis of the deposited data

Results flagged for a closer look

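The interaction of age and region in WT mice singled out 292 IDs and the 4 named for it, because the age change differed between hippocampus and cortex by a test of the difference itself. As the hippocampus change minus the cortex change, this was 1.41 log2 for ENSMUSG00000064365, 1.37 log2 for ENSMUSG00000061897, -0.81 log2 for ENSMUSG00000010175 and -0.78 log2 for ENSMUSG00000009075. The call of ENSMUSG00000064365 was lost under 14 of 18 other settings, with an adjusted p from 0.051 to 0.12 in those, while the difference lay between 1.26 and 1.52 log2 in all 18. That of ENSMUSG00000061897 was lost under 3 of 18, without young WT hippocampus replicate 2, without old WT cortex replicate 3 and without young WT cortex replicate 1. Those of ENSMUSG00000010175 and ENSMUSG00000009075 were kept under each of 18.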

How the results depend on the processing

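For age in WT hippocampus, the count of 714 was 2219 with array weights (1445 rose, 774 fell) and 396 with the 12 hippocampus arrays alone. It lay from 514 to 1011 under the other settings that kept the 6 arrays, the highest without young KO hippocampus replicate 1, whose deviation from its group mean (0.161 log2) was the largest of 24 arrays. Leaving out 1 WT hippocampus array gave 177 to 510. With the replicate block it was 548. The deviations of same-numbered old and young pools correlated at 0.192, -0.119 and -0.0131, and 1 of 3 numbers matched best with itself. So few values cannot decide whether the numbers pair pools. Whether same-numbered hippocampus and cortex pools came from the same mice was not checked, and the test of age by region treated them as independent. The replicate block used separate terms in each region, so it did not link hippocampus pools with cortex pools. For age by region, 292 became 160 with no filter on the mean level, 471 after quantile normalization (261 higher, 210 lower), 211 with the replicate block, 520 without young KO hippocampus replicate 1 and 6 to 597 without 1 WT array. The causes were not tested. The interaction with genotype stayed at 0 under all 16 alternatives run. Of the named IDs, ENSMUSG00000073418, ENSMUSG00000021760 and ENSMUSG00000050822 kept their calls for age in WT hippocampus under every alternative that tested them. Centring on the median of the tested IDs and leaving out the young KO array were chosen after seeing the data.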
